A study of Homo sapiens with 6 samples.

Results

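The MYC, MAX and MXD network was followed in 2 Ewing sarcoma cell lines exposed to THZ1, a covalent inhibitor of CDK7, the kinase that phosphorylates the C-terminal domain of RNA polymerase II. The members were 10 genes chosen by name, namely MYC, MYCN, MAX, MXD1, MXD3, MXD4, MXI1, MNT, MGA and MLX. All 10 were found, each in a single row, among the 27420 genes of the deposited expression table. A673 and SKNMC are established human Ewing sarcoma lines, and both were grown in DMEM with fetal bovine serum and antibiotics. Cells of each line received DMSO (the vehicle), 50 nM THZ1 (the low dose) or 200 nM THZ1 (the high dose) and were collected after 6 h. RNA-Seq was performed on 6 libraries, 1 for each of the 6 conditions. There are no replicates, so no difference could be set against a replicate error, no p-value is given, and both doses of a line were set against the same DMSO library.

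MYC and MYCN are transcription factors that activate genes for growth and ribosome production, and they bind DNA only as a dimer with MAX. MXD1, MXD3, MXD4, MXI1 and MNT compete for MAX and bring the SIN3 corepressor to the same sites, while MGA pairs with MAX inside a Polycomb complex known as PRC1.6. MLX is the MAX-like partner of MondoA (MLXIP) and ChREBP (MLXIPL), which respond to glucose, and it can also pair with some MXD proteins and with MNT. MYC mRNA and protein are short-lived, and MYC is a known oncogene in Ewing sarcoma.

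All these dimers recognise the E-box, whose core is CACGTG. Because the proteins can act on one another's genes through this site, the promoters of the members were searched for it. A promoter here is a window from 250 bases before to 50 bases after an annotated start, taken from RefSeq on GRCh38.p14. MYC was not searched here. The other 9 members were matched, with 14 promoters, and 3 genes, each with 1 promoter, had the core. Over all 35116 promoters of this length, 7.26% had it. The core reads the same on both strands. The windows of 30 bases that hold it are given below, 5′ to 3′ on the strand of the gene, with the core in capitals.
MLX, chr17:42567038-42567067, plus strand: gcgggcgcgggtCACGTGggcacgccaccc
MNT, chr17:2401236-2401265, minus strand: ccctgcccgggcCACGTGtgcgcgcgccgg
MXD4, chr4:2262330-2262359, minus strand: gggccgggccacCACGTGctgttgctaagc
The core began 50 bases before the start of MLX, 193 bases before that of MNT and 238 bases before that of MXD4, so all 3 lie upstream of the transcribed part in this annotation. A match gives the letters alone and does not show that a protein was bound. The whole promoter window of MLX, the member with the largest decrease from DMSO on the log2 scale defined below, is chr17:42566850-42567149 on the plus strand:
MLX promoter: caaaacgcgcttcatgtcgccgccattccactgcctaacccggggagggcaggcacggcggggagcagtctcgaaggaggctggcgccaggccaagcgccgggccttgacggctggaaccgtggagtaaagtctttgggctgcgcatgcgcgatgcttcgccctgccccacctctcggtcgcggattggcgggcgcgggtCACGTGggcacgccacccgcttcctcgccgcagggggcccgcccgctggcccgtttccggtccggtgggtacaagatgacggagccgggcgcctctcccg

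Expression was deposited as FPKM, the fragments of a gene scaled to the length of its transcripts and to the mapped fragments of its library, so levels can be compared between genes within a library. The absolute depth is unknown, since FPKM holds no read counts. From the most frequent ratio of low values, the depth of the THZ1 libraries was roughly 89.4% to 96.5% of that of their DMSO library, but only 1.04% to 1.30% of the low values sat at that ratio. Changes are log2((FPKM + 1) / (FPKM + 1)), which understates the change of low genes. A gene was taken as active above 1 FPKM in the reference library, and as lower or higher when it changed at least 2-fold. Of 9 genes that mark Ewing sarcoma, CD99, NKX2-2 and NR0B1 among them, all 9 were above 1 FPKM in every library, with summed levels of 845 to 1757 FPKM. Of 4 markers of other cell types, 3 are listed in the table, and PTPRC, the CD45 gene of blood cells, was at 10.2 FPKM in SKNMC with DMSO against a highest value of 0.0229 FPKM among the 3 in A673 with DMSO, and at 7.90 and 13.1 FPKM in SKNMC at 50 and 200 nM. Of 10 other blood cell genes, which were added after that value was seen, at most 2 passed 1 FPKM in any library, and their sum was between 1.28 and 7.42 FPKM. The part of PTPRC-expressing cells in the results was not tested. Because FPKM is relative to the total of a library, a loss of transcripts shared by all genes would leave no trace, and fewer cells and less RNA in each cell cannot be told apart.

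MYC was by far the most abundant member, and MLX was the active member with the steepest fall from DMSO. At the low dose, 1 of the 9 active members was at least 2-fold lower in each line, against 15.9% of all active genes in A673 and 15.8% in SKNMC, and in both lines it was MLX. At the high dose MLX and MGA, 2 of 9, were lower in A673 against 25.3% of active genes, while MLX, MGA, MAX and MYC, 4 of 9, were lower in SKNMC against 27.3%. When libraries were scaled to the 75th percentile of the active genes, MYC, MAX and MGA no longer reached 2-fold in SKNMC, with log2 values of -0.79, -0.86 and -0.64. MAX in A673 lay just short of 2-fold at the high dose and passed it under other settings, given below. No active member was at least 2-fold higher under THZ1 in either line, against at most 0.471% of active genes in these 4 comparisons. MYCN was below 1 FPKM in all 6 libraries and was not counted as active.

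**Figure D1:**
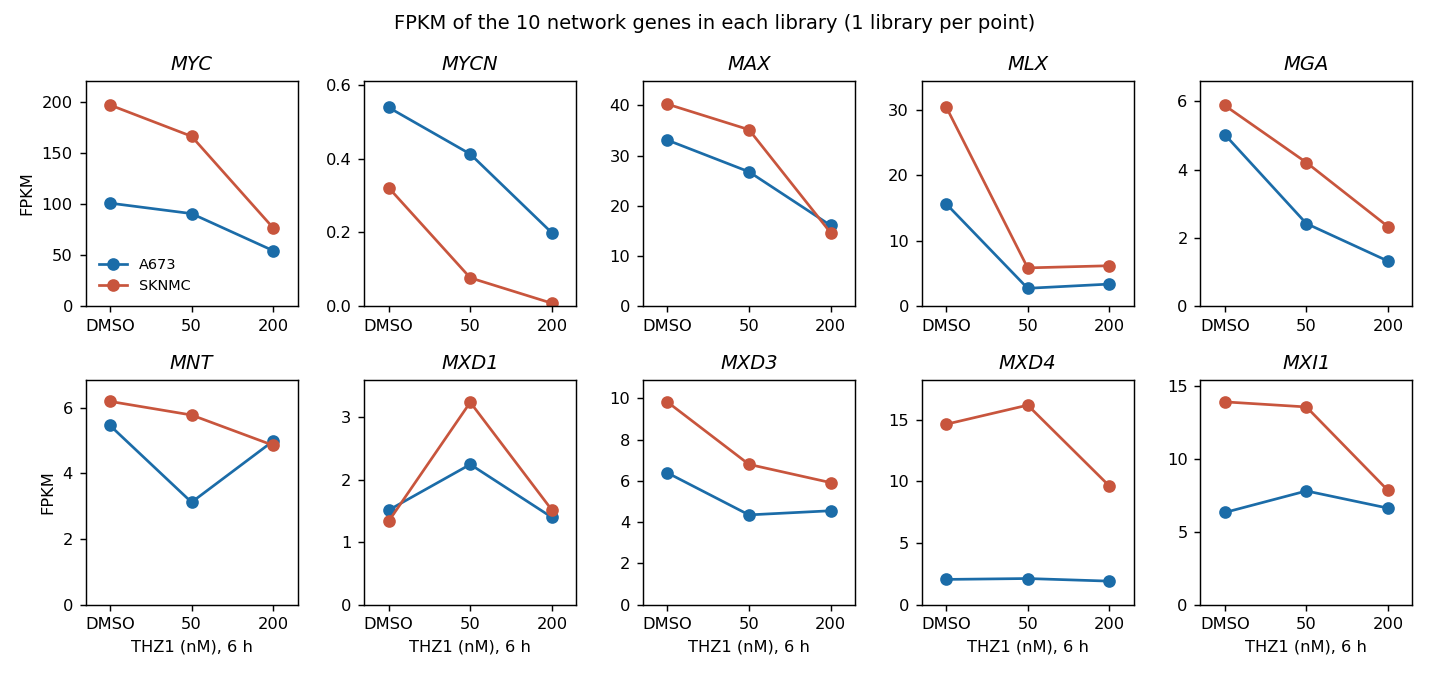
FPKM (y axes, linear and starting at 0) of the 10 genes by treatment (x axes), with 1 point per library and lines joining the libraries of a cell line. MLX drops at 50 nM and stays low at 200 nM, MYC and MAX drop mainly between 50 and 200 nM, and MXD1 is highest at 50 nM in both lines.

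The order of the levels with DMSO was led by MYC, MAX and MLX in both lines. In A673 with DMSO, MYC was at 101 FPKM, MAX at 33.1 FPKM and MLX at 15.6 FPKM. MXD3, MXI1, MNT and MGA followed between 5.03 and 6.39 FPKM, and MXD4, MXD1 and MYCN came last at 2.06, 1.52 and 0.539 FPKM. In SKNMC with DMSO, MYC was at 198 FPKM, MAX at 40.2 FPKM and MLX at 30.5 FPKM. There MXD4 and MXI1 were next at 14.6 and 13.9 FPKM, MXD3 was at 9.82, MNT at 6.19 and MGA at 5.88 FPKM, and MXD1 and MYCN were again last at 1.34 and 0.321 FPKM. With 1 library per condition, neighbours in this order such as MNT and MGA, or MXD4 and MXI1 in SKNMC, cannot be said to differ beyond their spread.

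MYC (ENSG00000136997, chr8:128747679-128753674 on hg19, plus strand) encodes the activating partner of the network. In A673 it was at 101 FPKM with DMSO, 90.9 FPKM with 50 nM THZ1 and 54.5 FPKM with 200 nM. In SKNMC the 3 values were 198, 167 and 76.8 FPKM. Its level was thus lower at each higher dose in both lines, and all 3 SKNMC values were above that of the A673 library given the same treatment. The low dose left 89.8% of the DMSO level in A673 and 84.4% in SKNMC, log2 fold changes of -0.15 and -0.24. Those changes were nearer to 0 than the medians of all active genes, -0.27 and -0.32, and with the 75th percentile they turned to 0.099 and 0.047. The high dose left 53.9% in A673, a log2 fold change of -0.88 that did not reach 2-fold, and 38.9% in SKNMC, where MYC fell by 1.35 on the log2 scale. With the 75th percentile the SKNMC value was -0.79, short of 2-fold, and with libraries divided by their median ribosomal protein gene the A673 value was -1.28, past 2-fold. Of the active genes, 29.4% had a lower log2 fold change than MYC at 200 nM in A673 and 15.2% in SKNMC. From 50 to 200 nM, MYC was 1.67 times lower in A673 and 2.17 times lower in SKNMC as a plain ratio of FPKM.

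MYCN (ENSG00000134323, chr2:16080685-16087129, plus strand), the neuroblastoma-associated relative of MYC, was barely detected. Its level in A673 was 0.539 FPKM with DMSO, 0.413 FPKM at 50 nM and 0.199 FPKM at 200 nM. The SKNMC libraries gave 0.321, 0.0768 and 0.00796 FPKM. The values stepped down with dose in both lines, but all of them were under the 1 FPKM taken as active, and their counting error is unknown. With DMSO, MYC was thus the member of the pair that supplied nearly all of the MYC-type transcript.

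MAX (ENSG00000125952, chr14:65472891-65569413, minus strand), the obligate partner of MYC, MXD proteins, MNT and MGA, was at 33.1, 26.8 and 16.1 FPKM in A673 with DMSO, 50 nM and 200 nM THZ1. In SKNMC it was at 40.2, 35.2 and 14.6 FPKM. SKNMC was the higher line with DMSO and at 50 nM and the lower line at 200 nM. The log2 fold change at 50 nM was -0.30 in A673 and -0.19 in SKNMC, near the medians of all active genes, and the SKNMC value turned to 0.094 with scaling by the 75th percentile. MAX fell by 1.40 on the log2 scale in SKNMC at 200 nM, a value that was -0.86 with the 75th percentile. In A673 at 200 nM the log2 fold change was -0.996, which lies just short of 2-fold with 1 added to FPKM, while the plain ratio was 2.06-fold. It passed 2-fold with 0.1 added, at -1.04, with a common sum, at -1.003, and with ribosomal protein scaling, at -1.38. MAX shares 56478 bases with FNTB on the other strand, and FNTB had log2 fold changes of -0.033 in A673 and -0.20 in SKNMC at 200 nM. Whether counting used the strand is not given in the sources used here.

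The MXD proteins and MNT, which oppose MYC by taking MAX to SIN3, had no member at least 2-fold lower or higher under THZ1 in either line with the deposited scaling. With ribosomal protein scaling MXD3, MXD4 and MXI1 passed 2-fold in SKNMC at 200 nM, at -1.07, -1.03 and -1.21, and with the 75th percentile MXD1 did in SKNMC at 50 nM, at 1.13. MXD1 (ENSG00000059728, chr2:70124819-70170077, plus strand) was at 1.52 FPKM with DMSO, 2.25 FPKM at 50 nM and 1.40 FPKM at 200 nM in A673. In SKNMC its values were 1.34, 3.24 and 1.52 FPKM. The 50 nM library was the highest in both lines. The plain ratio to DMSO at 50 nM was 1.48 in A673 and 2.42 in SKNMC, and the log2 fold changes with 1 added were 0.37 and 0.86. At 50 nM, 94.2% of the active genes of A673 and 99.2% of those of SKNMC had a lower log2 fold change than MXD1. As a low gene, MXD1 depended on the pseudocount, and with 0.1 added its log2 fold change in SKNMC at 50 nM was 1.22. It shares 7889 bases with SNRNP27 on its own strand, which had log2 fold changes of 0.079 in A673 and 0.083 in SKNMC at 50 nM. SNRNP27 is far more abundant, at 36.1 and 38.2 FPKM in A673 and at 31.0 and 33.0 FPKM in SKNMC with DMSO and 50 nM. The part of reads from SNRNP27 in the MXD1 values was not tested.

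MXD3 (ENSG00000213347, chr5:176728461-176739758, minus strand), an MXD gene known to be expressed in proliferating cells, was at 6.39, 4.35 and 4.55 FPKM in A673 and at 9.82, 6.80 and 5.92 FPKM in SKNMC with DMSO, 50 nM and 200 nM. All 4 THZ1 libraries were lower than their DMSO library, by log2 fold changes between -0.41 and -0.65. The gene shares 2285 bases with RAB24 on its own strand, which had log2 fold changes of -1.04 in A673 and -0.84 in SKNMC at 50 nM, and 3187 bases with PRELID1 on the other strand. PRELID1 is far more abundant, at 149 FPKM in A673 and 138 FPKM in SKNMC with DMSO, and the part of reads from both neighbours in the MXD3 values was not tested.

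MXD4 (ENSG00000123933, chr4:2249158-2264021, minus strand) was the active member that differed most between the lines. It was at 2.06, 2.13 and 1.92 FPKM in A673 with DMSO, 50 nM and 200 nM, and at 14.6, 16.2 and 9.63 FPKM in SKNMC. The SKNMC libraries were above the A673 libraries at every dose, and the plain ratio between the lines was 7.11 with DMSO, 7.60 at 50 nM and 5.02 at 200 nM. Within A673 the log2 fold changes were 0.033 and -0.067 at the low and high dose, and within SKNMC they were 0.14 and -0.56. The first of these turned to -0.13 and the third to -0.18 when libraries were divided by the median of their ribosomal protein genes, and the second turned to 0.19 with the 75th percentile.

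MXI1 (ENSG00000119950, chr10:111967362-112047123, plus strand), also called MXD2, was at 6.32, 7.79 and 6.62 FPKM in A673 with DMSO, 50 nM and 200 nM. The SKNMC values were 13.9, 13.5 and 7.82 FPKM. They started at 2.20 times those of A673 and ended at 1.18 times at 200 nM. Its log2 fold changes at 200 nM were 0.058 in A673 and -0.75 in SKNMC, and the A673 value turned to -0.29 with scaling by ribosomal protein genes.

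MNT (ENSG00000070444, chr17:2287353-2304412, minus strand), a broadly expressed antagonist of MYC, was at 5.45, 3.12 and 4.98 FPKM in A673, with the 50 nM library the lowest. In SKNMC it was at 6.19, 5.77 and 4.85 FPKM, with the 200 nM library the lowest. The log2 fold change at 50 nM was -0.65 in A673 and -0.086 in SKNMC, and at 200 nM it was -0.11 and -0.30. With scaling by the 75th percentile the last 3 of these values turned to 0.17, 0.21 and 0.19 in the same order.

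MGA (ENSG00000174197, chr15:41913421-42062141, plus strand), the MAX partner of PRC1.6, was lower at each higher dose in both lines. It was at 5.03 FPKM with DMSO, 2.42 FPKM at 50 nM and 1.32 FPKM at 200 nM in A673. In SKNMC the values were 5.88, 4.21 and 2.33 FPKM. At 50 nM the log2 fold change was -0.82 in A673 and -0.40 in SKNMC, and with 0.1 added in place of 1 the A673 value was -1.02. At 200 nM MGA fell by 1.38 on the log2 scale in A673, to 26.3% of the DMSO level, and by 1.05 in SKNMC, to 39.7%. The SKNMC value was -0.64, short of 2-fold, with the 75th percentile. Lower log2 fold changes were found for 14.7% of active genes in A673 and for 25.3% in SKNMC.

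MLX (ENSG00000108788, chr17:40719085-40725257, plus strand), whose promoter is shown above, was at 15.6 FPKM with DMSO, 2.73 FPKM at 50 nM and 3.37 FPKM at 200 nM in A673. In SKNMC it was at 30.5, 5.84 and 6.17 FPKM. The 4 THZ1 values, 2.73 to 6.17 FPKM, lay below both DMSO values, and the high dose was not lower than the low dose in either line. MLX fell by 2.16 on the log2 scale in A673 and by 2.20 in SKNMC at 50 nM, to 17.4% and 19.2% of the DMSO level. At 200 nM it fell by 1.93 and 2.13, to 21.5% and 20.3%. At 50 nM only 84 of 11077 active genes in A673 (0.758%) and 75 of 11896 in SKNMC (0.630%) had a lower log2 fold change. At 200 nM the share of genes lower than MLX was 5.40% in A673 and 2.66% in SKNMC. All 4 decreases kept their 2-fold size under the pseudocount of 0.1 and the 3 scalings, with log2 fold changes between -1.63 and -2.52.

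The genes next to MLX on the chromosome did not show a change of that size. COASY, a coenzyme A synthesis gene on the same strand that ends 789 bases before MLX, had log2 fold changes of -0.023 and -0.21 in A673 and of 0.044 and -0.45 in SKNMC at 50 and 200 nM. PSMC3IP, a recombination gene on the other strand that shares 926 bases with the end of MLX, was at 11.05, 6.85 and 10.8 FPKM in A673 and at 13.8, 8.98 and 10.2 FPKM in SKNMC. Its log2 fold changes were -0.62 and -0.033 in A673 and -0.57 and -0.41 in SKNMC.

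**Figure D2:**
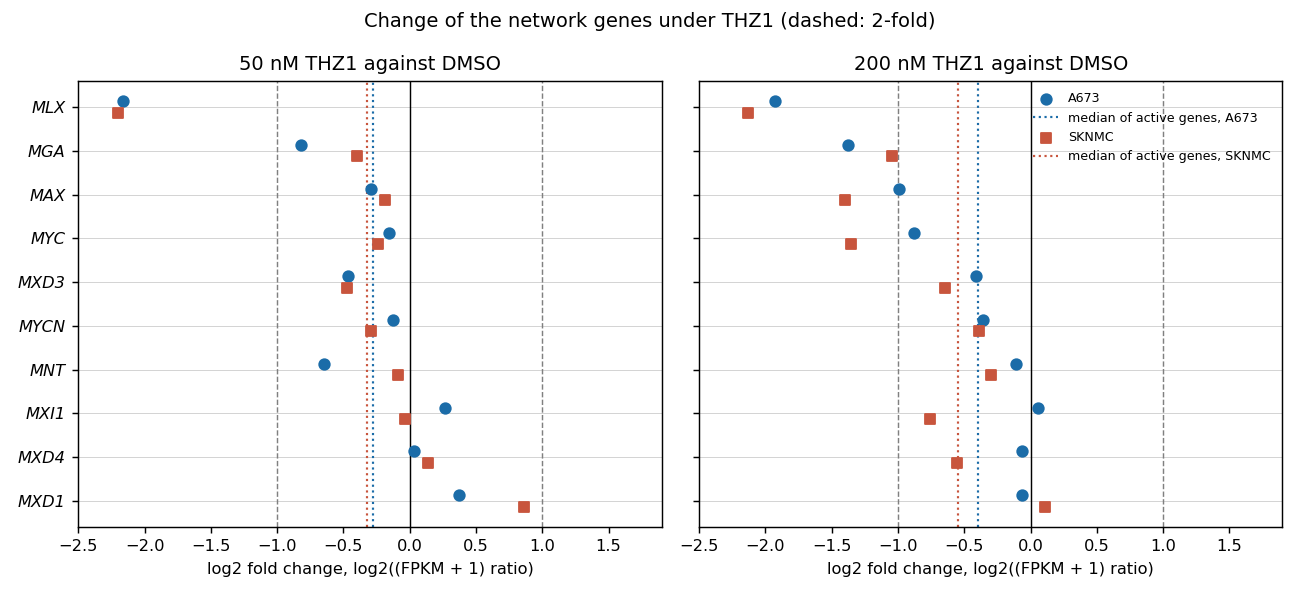
Log2 fold change (x axis, log2 ratio of FPKM with 1 added) of each gene at 50 nM (left) and 200 nM THZ1 (right) against the DMSO library of its line, with circles for A673, squares for SKNMC, dotted lines at the median of all active genes and dashed lines at 2-fold. MLX lies near -2 in all 4 comparisons, and MYC and MAX pass 2-fold in SKNMC at 200 nM alone.

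The counts of members were read against all active genes. In A673 at 50 nM, 1 of 9 active members was at least 2-fold lower against 15.9% of all active genes, and at 200 nM 2 of 9 against 25.3%. In SKNMC the counts were 1 of 9 at 50 nM against 15.8%, and 4 of 9 at 200 nM against 27.3%. With so few members, these counts do not set the network apart from the other genes. The background of genes at least 2-fold higher was 0.343% and 0.126% in A673 and 0.471% and 0.462% in SKNMC at the low and high dose, and 0 of 9 members were in that class in each comparison. The median log2 fold change of the active members was -0.30 and -0.41 in A673, beside -0.27 and -0.40 for all active genes. In SKNMC it was -0.19 and -0.75, beside -0.32 and -0.55. Scaled to the 75th percentile, 1 of 9 members, MLX, was at least 2-fold lower in SKNMC at 200 nM, and with division by the ribosomal protein median 7 of 9 were.

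From 50 to 200 nM, MYC and MAX fell by 1.11 and 1.21 on the log2 scale in SKNMC, so 2 of 9 members were at least 2-fold lower, against 9.09% of the genes active at 50 nM. In A673 the same step gave -0.73 for MYC and -0.70 for MAX, and 0 of 9 members were at least 2-fold lower, against 7.97%. The medians of the members over this step were -0.21 in A673 and -0.69 in SKNMC, and those of all active genes were -0.024 and -0.16. With the 75th percentile MYC and MAX were at -0.84 and -0.96 in SKNMC, and 0 of 9 members were at least 2-fold lower. MLX had values of 0.23 in A673 and 0.068 in SKNMC, and MNT had 0.54 in A673, the highest of the members. The shares of active genes at least 2-fold higher over the step were 0.134% in A673 and 0.362% in SKNMC, with 0 of 9 members among them in either line. Whether the step differed between the lines was not tested.

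A 1.5-fold threshold brought in further members. In A673 at 50 nM, MLX, MGA and MNT were lower by at least 1.5-fold, 3 of 9 members against 31.8% of active genes, and 0 were higher against 1.78%. At 200 nM in A673, MLX, MGA, MAX and MYC made 4 of 9 lower against 41.1%, with 0 higher against 1.7%. In SKNMC at 50 nM, MLX alone was lower, 1 of 9 against 33.5%, and MXD1 was higher, 1 of 9 against 2.43%. MXI1 and MXD3 joined the 4 members named above in SKNMC at 200 nM, which gave 6 of 9 lower against 48% and 0 higher against 2.81%. From 50 to 200 nM, 2 of 9 were lower in A673 against 19.1% and 6 of 9 in SKNMC against 23.8%, with 0 higher against 2.32% and 3.66%. With DMSO, MXD4, MXI1, MYC and MLX were higher in SKNMC than in A673, 4 of 9 against 19.2%, and 0 were lower against 19.7%.

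**Figure D3:**
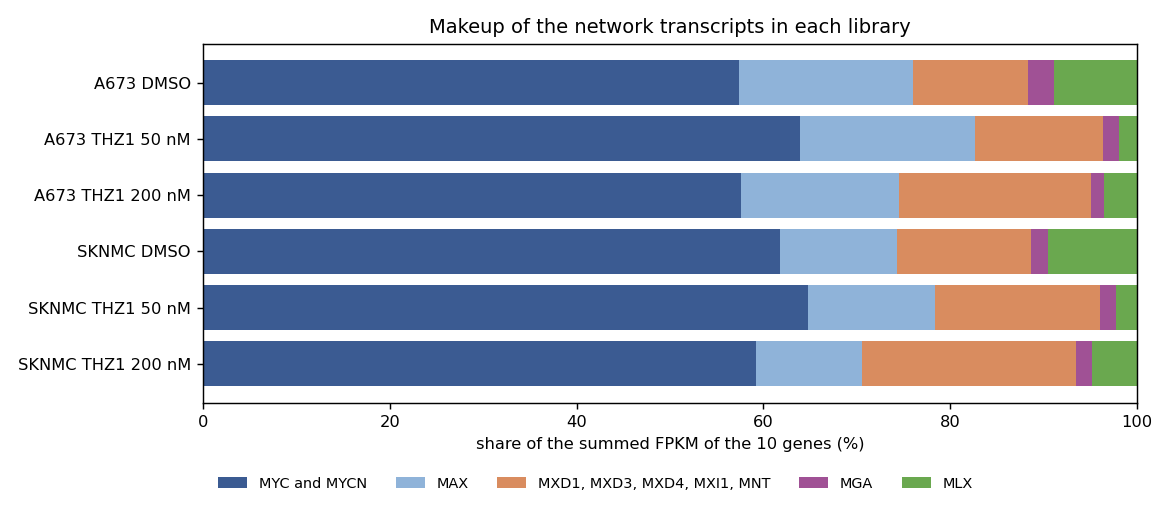
Share (x axis, %) of the summed FPKM of the 10 genes held by MYC and MYCN, by MAX, by the MXD genes and MNT, by MGA and by MLX in each of the 6 libraries (bars). The MXD and MNT share is largest at 200 nM in both lines, and the MLX share is smallest at 50 nM.

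Transcripts of MYC and MAX were set against those of the MXD genes and MNT within each library. There a ratio of FPKM does not depend on how the library is scaled. MGA was not counted with the MXD genes and MNT, and the ratios are of mRNA alone. The 10 genes summed to 177, 143 and 94.9 FPKM in A673 with DMSO, 50 nM and 200 nM, and to 320, 258 and 130 FPKM in SKNMC. The 4 MXD genes and MNT together held 12.3%, 13.7% and 20.5% of that sum in A673 and 14.3%, 17.7% and 22.9% in SKNMC. In FPKM they changed little in A673, from 21.7 with DMSO to 19.6 and 19.5, and in SKNMC from 45.9 to 45.5 and then 29.7. The level of MYC was 4.65 times their sum in A673 with DMSO, 4.63 times at 50 nM and 2.80 times at 200 nM. In SKNMC it was 4.31, 3.66 and 2.58 times. The ratio was thus lowest at the high dose in both lines. MYC and MAX kept closer to each other, with MYC at 3.06, 3.39 and 3.39 times MAX in A673 and at 4.91, 4.74 and 5.25 times in SKNMC. MAX itself went from 1.52 to 0.827 times the sum of the MXD genes and MNT in A673 between DMSO and 200 nM, and from 0.878 to 0.492 times in SKNMC.

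The other arm of the network, MLX with MondoA, shifted at the low dose. MLXIP, which encodes MondoA, was at 8.62, 10.2 and 6.47 FPKM in A673 and at 11.7, 18.4 and 8.68 FPKM in SKNMC with DMSO, 50 nM and 200 nM. MLXIP was therefore at 0.551 times the level of MLX in A673 with DMSO, at 3.75 times with 50 nM and at 1.92 times with 200 nM. In SKNMC the ratios were 0.385, 3.15 and 1.41. MLXIPL was between 0.789 and 1.33 FPKM and MYCL between 0.0107 and 0.268 FPKM over the 6 libraries. TXNIP, the best known MondoA target, was at 7.49, 14.1 and 24.0 FPKM in SKNMC and rose by 1.56 on the log2 scale at 200 nM. In A673 TXNIP was below the active level with DMSO and was at 0.775, 2.02 and 1.88 FPKM. ARRDC4, another MondoA target, was at 1.14, 1.52 and 0.364 FPKM in SKNMC and at most 0.0707 FPKM in A673.

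The genes whose changes were most like those of MYC were sought among the 5985 genes that passed 10 FPKM in the DMSO library of each line and were not listed at 0 with THZ1. Likeness was the largest difference from MYC over the 4 log2 fold changes against DMSO, so a small value means a close match. SLBP, the histone mRNA binding protein, was nearest at 0.108, followed by PPP3R1 at 0.139, MAX at 0.142, YY1AP1 at 0.148 and PPIF at 0.152. For MAX the nearest genes were TNIP2 at 0.067, UAP1 at 0.112, YY1AP1 at 0.121, GMNN at 0.135 and RNF166 at 0.135. MAX was thus the third nearest gene to MYC. In all, 16 genes lay within 0.2 of MYC.

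The genes through which the network works were described with lists chosen by function. Of 11 MYC co-activators, all active in both lines, 1 was at least 2-fold lower in each of the 4 comparisons, namely KAT5, the acetyltransferase TIP60. The shares over all active genes were 15.9% and 15.8% at 50 nM and 25.3% and 27.3% at 200 nM in A673 and SKNMC. KAT5 was at 20.0, 7.40 and 4.25 FPKM in A673 and at 21.5, 8.19 and 5.97 FPKM in SKNMC. KAT2A, the acetyltransferase GCN5, had the highest values of the list at 200 nM, with a log2 fold change of 0.40 in each line. The list medians at 200 nM were -0.51 in A673 and -0.24 in SKNMC, beside -0.40 and -0.55 for all active genes. Of 17 SIN3 and NCOR corepressor genes, 1 was lower at 50 nM in each line, SAP130 in A673 and SAP30 in SKNMC, and 7 were lower at 200 nM in each line, beside those same shares. SIN3A, the scaffold that MXD proteins recruit, was at 14.8, 11.7 and 4.07 FPKM in A673 and at 23.9, 25.03 and 7.47 FPKM in SKNMC. SAP30 fell by 2.36 on the log2 scale in SKNMC at 200 nM and by 1.40 in A673. HDAC1 had the highest values, 0.66 in A673 and 0.56 in SKNMC. The list medians at 200 nM were -0.29 and -0.50, beside -0.40 and -0.55 for all active genes.

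The partners of MGA in PRC1.6 had 2 of 11 genes lower at 50 nM and 3 of 11 at 200 nM in A673, and 1 and 4 of 11 in SKNMC. Over all active genes the shares were 15.9% and 25.3% in A673 and 15.8% and 27.3% in SKNMC. L3MBTL2 was the one gene lower in both lines at 50 nM, where it fell by 1.48 on the log2 scale in A673 and by 1.36 in SKNMC. E2F6 had the largest decrease at 200 nM, where it fell by 2.03 in A673 and fell by 2.23 in SKNMC, and TFDP1 had the highest values, 0.14 and 0.22. The list medians at 50 and 200 nM were -0.27 and -0.60 in A673 and -0.33 and -0.79 in SKNMC, beside -0.27 and -0.40 and beside -0.32 and -0.55 for all active genes. Of 14 genes for MYC protein turnover and stability, 1 was at least 2-fold lower at 50 nM and 4 were at 200 nM in each line, against the same shares of all active genes, and its medians at 200 nM were -0.43 in A673 and -0.49 in SKNMC. AURKA, a kinase that stabilises MYC proteins, was lower in all 4 comparisons and fell by 3.48 in A673 and fell by 2.54 in SKNMC at 200 nM. FBXW7, the ubiquitin ligase subunit that marks MYC for degradation, was at 4.84, 11.2 and 5.42 FPKM in A673 and at 4.98, 14.1 and 9.60 FPKM in SKNMC. FBXW7 was the only gene of these lists at least 2-fold higher at 50 nM, where it rose by 1.06 in A673 and by 1.34 in SKNMC. It was 1 of the 14 genes of its list, against 0.343% of all active genes in A673 and 0.471% in SKNMC that were at least 2-fold higher. At 200 nM its log2 fold changes were 0.14 and 0.82.

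Of the 36 MYC-activated target genes, 35 were active in each line. At 50 nM 3 of 35 were at least 2-fold lower in each line, beside 15.9% and 15.8% of all active genes, and at 200 nM 5 of 35 were lower in A673 and 9 of 35 in SKNMC, beside 25.3% and 27.3%. GNL3 and PPAN, nucleolar factors of ribosome production, were lower in both lines at 50 nM. WDR43, another ribosome production factor, was at 59.1, 26.6 and 6.31 FPKM in A673 and at 50.1, 40.1 and 10.3 FPKM in SKNMC. The transferrin receptor gene TFRC had the highest mean change, with log2 fold changes of 0.24 and 0.28 at 200 nM. ODC1, a classical MYC target in polyamine synthesis, was at 193, 194 and 184 FPKM in A673 and at 130, 132 and 75.2 FPKM in SKNMC. CCND2 was at 21.6, 27.1 and 19.2 FPKM in SKNMC and at most 0.125 FPKM in A673. The list medians were -0.18 and -0.08 in A673 and -0.19 and -0.51 in SKNMC at 50 and 200 nM. At 50 nM, 0 of the 5 MYC-repressed genes active in A673 and 0 of the 6 active in SKNMC were at least 2-fold lower. The shares over all active genes were 15.9% and 15.8%. CDKN1B and GADD45A were lower in A673 at 200 nM, 2 of 5 against 25.3% of all active genes. In SKNMC at 200 nM CDKN1A, the p21 gene, was lower and fell by 1.71, which made 1 of 6 against 27.3%. No active gene of this list was at least 2-fold higher under THZ1 in either line. Over all active genes, the shares of higher genes were 0.343% and 0.126% in A673 and 0.471% and 0.462% in SKNMC at 50 and 200 nM. The list medians at 200 nM were -0.61 in A673 and -0.18 in SKNMC, beside -0.40 and -0.55 for all active genes. Among the genes of this list active in both lines NDRG2 had the highest mean, at 0.19 in A673 and -0.26 in SKNMC. CDKN1C, the p57 gene, which was active in SKNMC alone, had a log2 fold change of 0.72 there and is named after its value was seen.

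**Figure D4:**
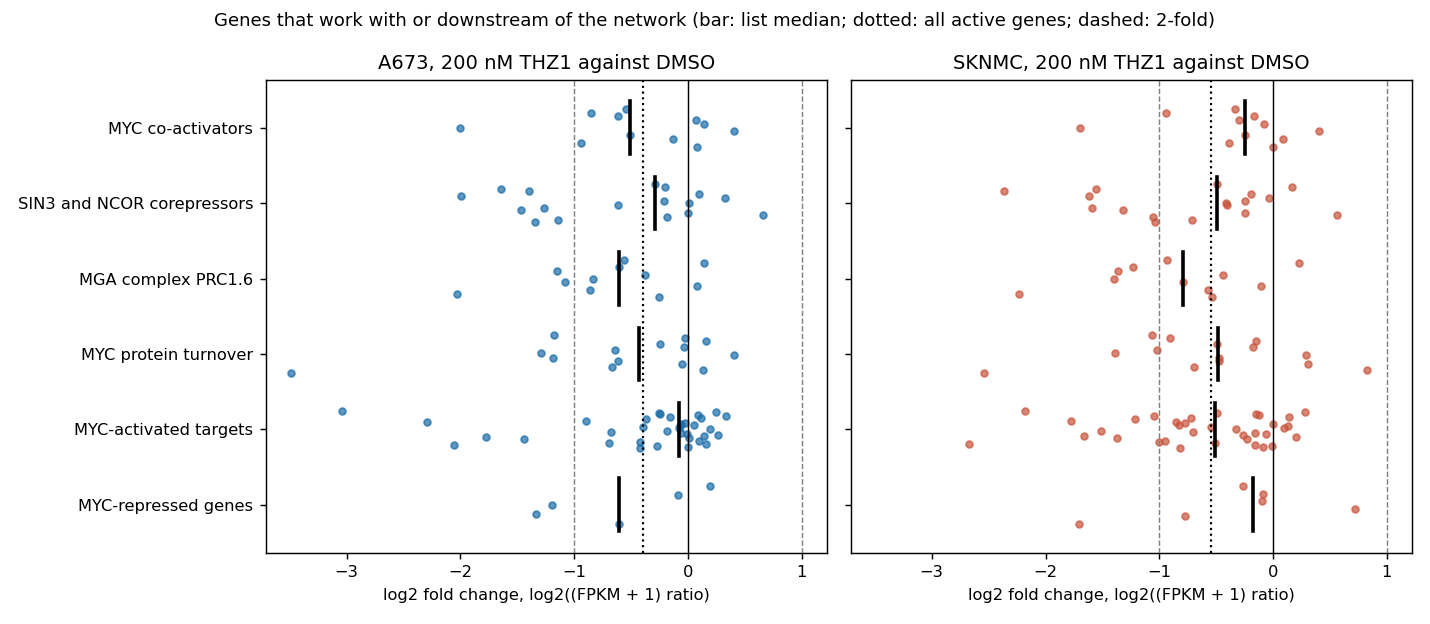
Log2 fold change at 200 nM THZ1 against DMSO (x axis, log2 ratio of FPKM with 1 added) of the active genes of 6 lists (rows) in A673 (left) and SKNMC (right), with 1 point per gene, bars at the list medians, dotted lines at the median of all active genes and dashed lines at 2-fold. Most points lie between -1 and 0.5, and the tails below -1 hold KAT5, SAP130, E2F6, AURKA, WDR43 and CDC25A in both lines.

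Without THZ1 and with the deposited scaling, most members were more abundant in SKNMC than in A673. Of the 9 active members, 8 had a higher level in SKNMC, and their median log2 value was 0.55. Over all genes active in A673 the median was 0.013 and the quartiles were -0.44 and 0.44, so higher and lower genes were about equally many. MXD4 and MXI1, 2 of the 9, passed 2-fold, against 8.55% of the genes active in A673. MYC was at 1.95 times and MLX at 1.95 times the A673 level, log2 values of 0.96 and 0.92 with 1 added, just under the threshold. MXI1, at 1.02, lay just above it and was at 0.53 with division by the ribosomal protein median, where MXD4 alone passed 2-fold. MXD1 was the one active member with a lower level in SKNMC, at 0.883 times that of A673, and 0 of 9 members were at least 2-fold lower, against 9.42% of all active genes. MAX, MNT and MGA, at log2 values of 0.28, 0.16 and 0.19, turned to -0.25, -0.30 and -0.26 with division by the ribosomal protein median. Differences between the lines and between single libraries cannot be told apart here.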

How the data were processed

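Libraries made by the authors with a TruSeq kit were read as 100-bp pairs, which were aligned to hg19 by STAR with the Ensembl 75 annotation. The deposited FPKM values were estimated with StringTie per the paper's methods, while the submitters' processing notes name Cufflinks. Versions are not given in the sources used here. The table lists 20311 protein-coding and 7109 lincRNA genes and 4 columns of the authors' own log2 fold changes, which were not used. Columns were matched to conditions by sample title, and each was treated as 1 library, although the title of the table speaks of averages. The cell line field spells the second line SKNMC and the titles SKMNC.

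Fold changes used a pseudocount of 1 and a 2-fold threshold, and active genes had over 1 FPKM in the reference library (DMSO, the 50 nM library for the step between doses, and A673 for the comparison of lines). Calculations used Python 3.11.15 with pandas 2.3.3, numpy 2.4.6 and matplotlib 3.10.9 and were tested on simulated data. The members and lists were chosen with earlier results of these data known. All 10 members are described. Of each list, the genes active in both lines with the lowest and highest mean change at 200 nM were named, plus TXNIP, ARRDC4, CDKN1A, ODC1, CCND2, FBXW7 and SIN3A, and the 5 genes most like MYC and MAX. Others were named after their values were seen. Alternatives were a pseudocount of 0.1, no filter, a 1.5-fold threshold, and scaling to a common sum, to the 75th percentile of active genes or to the median of 77 ribosomal protein genes. Depth is unknown, so no counting intervals are given.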

Additional observations from a re-analysis of the deposited data

Results flagged for a closer look

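MXI1 moved up in A673 and down in SKNMC relative to DMSO, at the low and the high dose alike. Its log2 fold changes were 0.26 and 0.058 in A673 and -0.034 and -0.75 in SKNMC at 50 and 200 nM. NDRG2, of the MYC-repressed list, had the same pattern, with 0.090 and 0.19 in A673 and -0.18 and -0.26 in SKNMC. With 1 library per condition, the difference was not tested for either gene, and none of the 8 values reached 2-fold. Of 10574 genes active in both lines, 464 had this pattern and 93 the reverse. The opposite directions of both genes held with a common sum but not with the other 2 scalings. With the 75th percentile, MXI1 was at 0.24 and NDRG2 at 0.091 in SKNMC at 50 nM. With the ribosomal protein median, MXI1 was at -0.29 and NDRG2 was at -0.11 in A673 at 200 nM.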

How the results depend on the processing

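Of 84 recomputed counts of members past the threshold, 69 stayed within 1.5 times the reported count and 15 did not. With a pseudocount of 0.1, the members lower in A673 at 50 nM were 2, and the members higher in SKNMC at 50 nM were 1. A 1.5-fold threshold gave 3 lower in A673 at 50 nM, 4 lower in A673 at 200 nM, 1 higher in SKNMC at 50 nM, 2 lower in A673 and 6 lower in SKNMC between the doses, and 4 higher in SKNMC than in A673 with DMSO. With the 75th percentile, 1 was higher in SKNMC at 50 nM, 1 lower in SKNMC at 200 nM, 0 lower between the doses in SKNMC and 4 higher in SKNMC with DMSO. Scaling by ribosomal protein genes gave 4 lower in A673 and 7 lower in SKNMC at 200 nM and 1 higher in SKNMC with DMSO. The counts without a filter on low values and with a common sum did not leave that range, although a common sum brought MAX past 2-fold in A673 at 200 nM. The median over the active genes shifted with the 75th percentile by 0.22 and 0.32 in A673 and by 0.25 and 0.48 in SKNMC, low dose before high dose. The shifts with ribosomal protein genes were -0.21 and -0.33 in A673 and -0.25 and -0.39 in SKNMC. No called change of a member turned its sign. The comparisons were made within each line, where 1 library per condition leaves no replicates to pair or to leave out, and a fit over both lines with the line as a block was not run. Which scaling is nearest to the RNA amount per cell was not tested.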

Other observations

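The genes whose changes were most like those of MLX, sought after its values were seen and with the same measure as for MYC and MAX, were METTL1 at 0.118, FAM208A at 0.157, THAP7 at 0.182, PRMT6 at 0.191 and ZNF740 at 0.215. METTL1 and PRMT6 encode methyltransferases of tRNA and of histones. All 5 fell at least 2-fold in all 4 comparisons, which follows from their choice by likeness to MLX. METTL1 had log2 fold changes of -2.12 and -1.81 in A673 and -2.27 and -2.18 in SKNMC at 50 and 200 nM.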
